A study of Arabidopsis thaliana with 11 samples.

Results

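The genes described here are the serine carboxypeptidase-like (scpl) genes of Arabidopsis thaliana that have a probe set of their own on the Affymetrix ATH1 array. A probe set was a member where the annotation gave it to 1 gene whose symbol was scpl and a number, in either case of letters. This gave 29 probe sets for 29 genes, of 22746 probe sets that are not controls. RefSeq holds 51 genes of this name by symbol or synonym, so 29 of 51 were measured singly. A further 3 genes lie on 2 probe sets that name several genes, and these were not analysed here, nor were the others of the 51, which include SNG1, SNG2 (SCPL19) and BRS1 (SCPL24).

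RNA came from the laboratory accession Columbia-0 (Col-0), with no mutant or treatment, and each sample was hybridised to 1 array. Leaf samples were rosette leaves of plants 15 days from germination (3 arrays). Open flowers together with closed buds (4 arrays) and the top 2 inches of stem without siliques or pedicels (4 arrays) came from plants 29 days from germination. Light was given for 16 h a day at 125 umol per square metre and second, at 25 C by day and 20 C by night. Titles carried a code, GC or GH, on 1 GC and 2 GH arrays of leaf and on 2 of each in flower and in stem. Only the leaf GH arrays were described as from a greenhouse, and all others, flower and stem GH included, as from a controlled system, so the meaning of the code was not settled. Leaf differed from both other tissues in age as well as in organ, and its 2 GH arrays also in the growing place described. A model term for the code cannot remove this, since flower and stem GH arrays were not described as from a greenhouse. Nothing said that arrays of a group came from separate plants, so p-values reflect only how far these arrays spread, and that spread may be technical.

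Serine carboxypeptidases are enzymes of the alpha/beta hydrolase fold that cut the last residue from the carboxyl end of proteins, with a serine, an aspartate and a histidine in the active site. They are made with a signal peptide and pass through the secretory route to the vacuole or the cell wall. Some plant members of the family have turned into acyltransferases: SNG1 makes sinapoylmalate, a sunscreen of leaves, and SNG2 makes sinapoylcholine in seeds, both from a glucose ester. BRS1 is known for its action on signalling through the brassinosteroid receptor BRI1. For most of the genes below no substrate is given here.

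The values are MAS5 signals, 1 per probe set and array on a linear scale, and a signal also depends on the probes, so levels are compared between tissues of the same gene and not between genes. Array values in a sentence run GC 1, GH 1, GH 2 for leaf and GC 1, GC 2, GH 1, GH 2 for flower and stem. The dim limit was a signal of 28.1, the 40th percentile of all values. Of the 29 members, 20 had at least 3 arrays above it and were tested. The share of members kept was 69.0%, against 69.1% of all probe sets and 63.5% of those naming 1 gene. Of these 20, scpl38, scpl41 and scpl46 were above the limit in 1 tissue alone, so their passing the filter already required a difference between tissues. Their calls are therefore no support for a tissue difference. In addition, scpl31, scpl40, SCPL43 and scpl47 were dim on every leaf array and passed the filter through flower and stem alone. Calls of these genes against leaf are likewise no support. The counts below include all of these calls. Across probe sets on the log2 scale, arrays of the same tissue correlated at r = 0.874 to 0.931 and arrays of different tissues at 0.786 to 0.847. The stem GH 1 array stood apart in RNA quality: for actin, the 3' probe set gave 19.6 times the 5' signal there and 0.781 to 2.90 times elsewhere. Bulk RNA does not tell a change in the number of cells of a type from a change in RNA per cell.

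**Figure D1:**
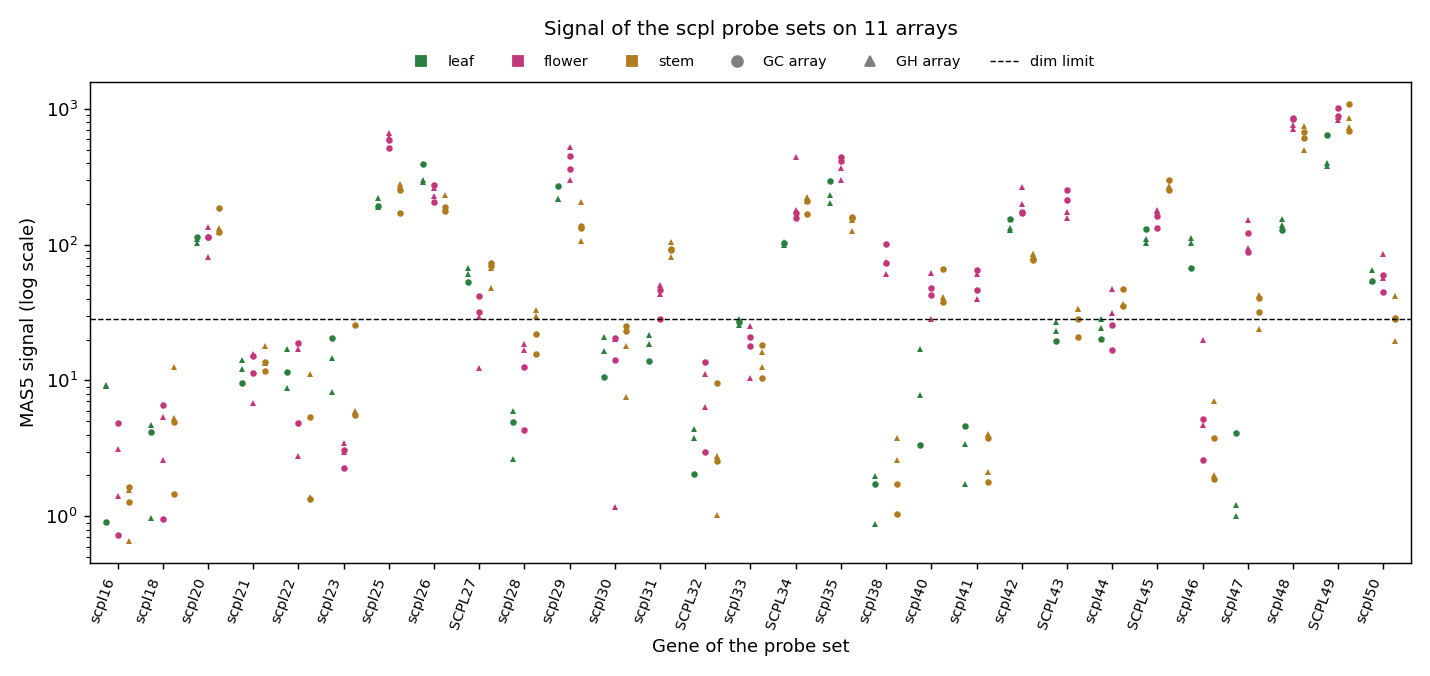
MAS5 signal (log scale) of the 29 scpl probe sets on each of 11 arrays, with tissue by colour and the title code by shape. The dashed line is the dim limit of 28.1. The probe sets of scpl38 and scpl41 lie above it only on flower arrays and that of scpl46 only on leaf arrays.

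Flower was the tissue with the highest mean signal for 12 of the 20 tested members, stem for 6 and leaf for 2, where 41.0%, 28.3% and 30.7% of all probe sets tested had theirs. In limma's test over all probe sets, 14 of the 20 tested members rose in flower against leaf and 2 fell, and 9 rose and 3 fell in flower against stem. In stem against leaf 7 rose and 6 fell. The background was high as well: 35.7% of 15718 probe sets were called between flower and leaf (21.3% higher, 14.4% lower in flower), 39.6% between stem and leaf (17.9% higher, 21.6% lower in stem) and 40.9% between flower and stem (25.5% higher, 15.4% lower in flower). Arrays of flower and leaf did not overlap for 17 of the 20 (45.8% of all probe sets), those of stem and leaf for 15 (42.5%) and those of flower and stem for 12 (37.8%). The median log2 difference of the 20 members was 0.84 for flower against leaf, 0.33 for stem against leaf and 0.62 for flower against stem, beside 0.16, -0.07 and 0.17 over all probe sets tested. After quantile normalization the medians over all probe sets were -0.00, -0.06 and -0.01, and those of the members were 0.87, 0.30 and 0.60. Of all probe sets called between flower and leaf, 59.7% were higher in flower on the deposited scale, 51.0% with quantile normalization and 49.5% where each array was centred on its 75th percentile. For flower against stem these shares were 62.4%, 51.7% and 51.1%.

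Flower was called above both leaf and stem for 8 of the 20 members, namely scpl25, scpl29, scpl35, scpl38, scpl41, scpl42, SCPL43 and scpl47. This pattern held for 10.6% of all probe sets tested, and scpl38 and scpl41 passed the filter through flower alone. Flower and stem were both called above leaf for 7 members (9.23% of all probe sets), stem above both others for 2 (8.62%) and leaf above both others for 1 (9.83%). The last of these was scpl46, which passed the filter through leaf alone. Of the 7, scpl31, scpl40 and scpl47 passed the filter through flower and stem alone. Flower was below both others for 1 (5.49%), stem below both others for 4 (10.4%), and all 3 pairs of tissues differed for 6 (8.80%). The account follows the numbering of the family, in which the numbers 1 to 19 hold the relatives of SNG1 and SNG2, 47 to 49 hold the relatives of yeast carboxypeptidase Y, and the range between them holds BRS1.

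**Figure D2:**
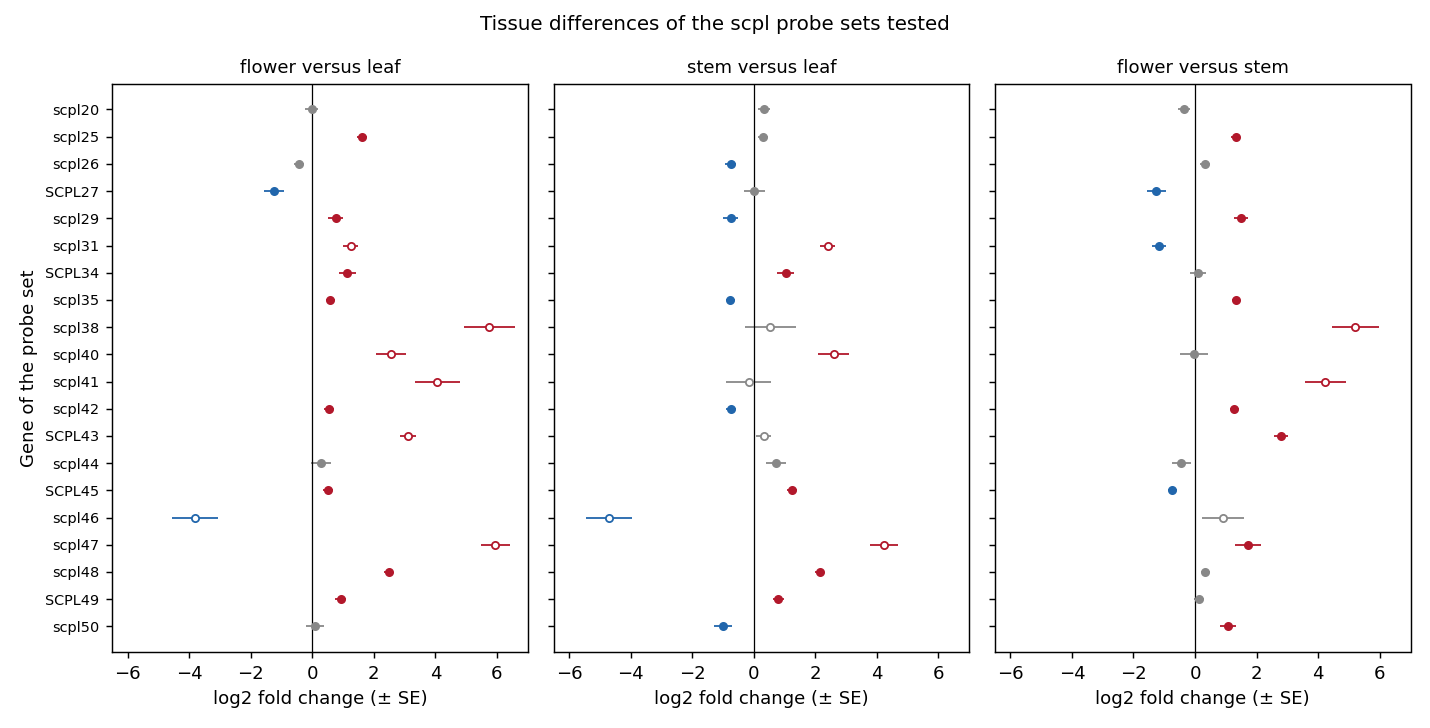
Log2 fold change with its SE from limma for the 20 tested members in the 3 tissue comparisons, where red is called higher, blue called lower and grey not called at an adjusted p of 0.05. Open circles mark members dim on every array of at least 1 of the 2 tissues, whose fitted values are not measured folds.

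Of the 19 genes in the range of the acyltransferase relatives, only scpl16 (AT3G12220, probe set 256265_at) and scpl18 (AT1G33540, probe set 256423_at) were measured singly, and both were dim on all 11 arrays. These 2 say nothing of the rest of that range, SNG1 and SNG2 included. For scpl16 the leaf arrays gave 0.903, 9.19 and 9.09, the flower arrays 0.726 to 4.86 and the stem arrays 0.661 to 1.63. For scpl18 the ranges were 0.981 to 4.73 (leaf), 0.960 to 6.62 (flower) and 1.46 to 12.5 (stem). Below the limit the order of such values carries no information, so no tissue is given as higher.

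Among the relatives of carboxypeptidase Y, scpl47, scpl48 and SCPL49 were all tested, and all were called higher in flower and in stem than in leaf. This pattern held for 9.23% of all probe sets tested, and outside this group also for SCPL34, SCPL45, scpl31 and scpl40. SCPL49 (AT3G10410, probe set 258970_at), which RefSeq also lists as CPY, was bright in every organ. Carboxypeptidase Y of yeast is a protease of the vacuole. The SCPL49 signal was 639, 396 and 379 in leaf, 875, 1017, 865 and 831 in flower and 1083, 682, 846 and 735 in stem. Every flower and stem array lay above every leaf array, and flower and stem overlapped. The mean was 471 ± 145 (SD, n = 3) in leaf, 897 ± 81.8 (SD, n = 4) in flower and 836 ± 178 (SD, n = 4) in stem. The log2 change was 0.92 ± 0.18 (SE; adjusted p = 0.00204) for flower against leaf and 0.80 ± 0.18 (SE; adjusted p = 0.00431) for stem against leaf. Between flower and stem it was 0.12 ± 0.17 (SE; adjusted p = 0.596), which did not pass. The leaf GC 1 array was the highest of leaf, and within the GC arrays, with that array as the only leaf array, the calls against leaf were lost with log2 changes of 0.56 for flower (adjusted p = 0.260) and 0.43 for stem (adjusted p = 0.365).

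The gene scpl48 (AT3G45010, probe set 252606_at), used as a marker of developmental cell death in plants, such as that of xylem vessels, had the smallest adjusted p of the tested members both in flower against leaf and in stem against leaf. Its signal was 127, 154 and 139 in leaf, 838, 856, 754 and 707 in flower and 668, 603, 745 and 498 in stem. All flower and stem arrays stood well above all leaf arrays, while flower and stem overlapped. The log2 change was 2.48 ± 0.16 (SE; adjusted p = 6.2e-07) for flower against leaf and 2.14 ± 0.16 (SE; adjusted p = 2.1e-06) for stem against leaf, and both calls were kept in all 22 alternatives. Flower against stem was at 0.34 ± 0.14 (SE; adjusted p = 0.0796), not called, but it was called with quantile normalization (adjusted p = 0.00509) and without stem GH 1 (0.0179). Markers of secondary walls moved with stem: all 4 measured of 13 (IRX15, IRX15-L, GUT2 and GUT1) rose there against leaf, with a sum of 908.9 to 1833 over the stem arrays, 208 to 217 over leaf and 209.9 to 235 over flower. Of these 4, IRX15 was dim on every leaf and flower array, so it passed the filter through stem alone, and none was at 0. Over all probe sets tested, 17.9% were higher in stem than leaf. In flower none of the 4 was called against leaf, and the part of vessel cells in the scpl48 signal was not tested.

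The third of this group, scpl47 (AT5G22980, probe set 249856_at), ran from dim in leaf through weak in stem to clear in flower. The signal was 4.08, 1.22 and 1.01 in leaf, 32.0, 40.2, 42.3 and 24.0 in stem and 87.7, 123, 94.3 and 153 in flower. No array of these tissues overlapped with another tissue, and 3 of the 4 stem arrays were above the dim limit. The mean was 114 ± 29.7 (SD, n = 4) in flower and 34.6 ± 8.37 (SD, n = 4) in stem. Leaf was dim on every array, with a mean of 2.10 ± 1.72 (SD, n = 3). Against leaf the signal was at least 3.97-fold higher in flower and at least 1.20-fold higher in stem. The fitted changes, which use the dim leaf values, had adjusted p = 2.7e-06 in flower and adjusted p = 3.3e-05 in stem. As scpl47 passed the filter through flower and stem alone, these calls against leaf are no support. The stem call was lost with values floored at the dim limit (log2 change 0.33, adjusted p = 0.277). Flower exceeded stem by 1.72 ± 0.42 (SE; adjusted p = 0.00678) on the log2 scale, a call lost within the GH arrays (adjusted p = 0.0668).

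Of the flower-high genes, scpl38 and scpl41 were above the dim limit in flower alone. The scpl38 signal (AT2G05850, probe set 266029_at) was 72.9, 101, 74.7 and 60.7 in flower, 1.74, 0.884 and 1.97 in leaf and 1.04, 1.74, 3.80 and 2.59 in stem. The scpl41 signal (AT5G42230, probe set 249241_at) was 64.4, 46.1, 60.7 and 39.4 in flower, 4.61, 1.72 and 3.40 in leaf and 3.76, 1.78, 4.02 and 2.13 in stem. For both genes every flower array was above the limit and every other array below it. Flower means were 77.3 ± 16.9 (SD, n = 4) and 52.7 ± 11.9 (SD, n = 4). The difference from leaf was at least 2.70-fold for scpl38 and at least 1.84-fold for scpl41. The fitted changes against leaf had adjusted p = 2.3e-04 for scpl38 and adjusted p = 9.9e-04 for scpl41. Both genes passed the filter through flower alone, so their calls are no support. The measured leaf means were 1.53 ± 0.574 (SD, n = 3) and 3.25 ± 1.45 (SD, n = 3). Against stem, at 2.29 ± 1.19 (SD, n = 4) and 2.92 ± 1.13 (SD, n = 4), the same bounds held. The fitted changes against stem had adjusted p = 2.4e-04 for scpl38 and adjusted p = 4.0e-04 for scpl41, with the same limit. The scpl41 call against leaf was lost within the GC arrays (adjusted p = 0.0706).

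SCPL43 (AT2G12480, probe set 263306_at) was clear in flower and near the limit elsewhere. Its signal was 214, 254, 157 and 175 in flower, 19.7, 23.3 and 26.7 in leaf and 20.9, 28.1, 33.6 and 33.6 in stem. Flower stood clear of both other tissues, whose arrays overlapped. The leaf arrays were all dim, at 23.2 ± 3.54 (SD, n = 3). Thus SCPL43 passed the filter through flower and stem alone, and its call against leaf is no support. Flower, at 199.8 ± 43.1 (SD, n = 4), was at least 6.99-fold higher than leaf (fitted change at adjusted p = 3.7e-06). In stem, at 29.1 ± 6.02 (SD, n = 4), 3 of 4 arrays were above the limit, GC 2 by under 1 signal unit, and the log2 change of flower against stem was 2.78 ± 0.23 (SE; adjusted p = 4.7e-06). Both calls were kept in all 22 alternatives.

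The flower-high genes scpl25, scpl29, scpl35 and scpl42 were above the dim limit on all 11 arrays. For scpl25 (AT3G02110, probe set 258857_at) the signal was 191, 219 and 188 in leaf, 586, 514, 623 and 660.5 in flower and 251, 171, 269 and 279 in stem. The flower arrays lay above all others, and leaf and stem overlapped. The scpl25 mean of 596 ± 62.5 (SD, n = 4) in flower compared with 199 ± 17.1 (SD, n = 3) in leaf, a log2 change of 1.62 ± 0.16 (SE; adjusted p = 1.1e-05), and with 243 ± 48.9 (SD, n = 4) in stem, a log2 change of 1.32 ± 0.14 (SE; adjusted p = 3.1e-05). Both calls were kept in all 22 alternatives. Stem against leaf was at 0.31 ± 0.16 (SE; adjusted p = 0.143) and not called, but it was called without stem GC 2 (adjusted p = 0.0313).

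Orders with stem lowest, leaf between and flower highest were seen for scpl35, scpl29 and scpl42. The scpl35 signal (AT5G08260, probe set 250517_at) was 156, 160.5, 125 and 152 in stem, 295, 233 and 202 in leaf and 409.5, 437, 299.7 and 366 in flower. No tissue overlapped with another for scpl35. Its log2 change was 1.34 ± 0.13 (SE; adjusted p = 1.3e-05) for flower against stem, -0.75 ± 0.14 (SE; adjusted p = 0.00123) for stem against leaf and 0.59 ± 0.14 (SE; adjusted p = 0.00652) for flower against leaf. The flower against leaf call was lost within the GC arrays (adjusted p = 0.149) and within the GH arrays (0.0735), and the stem against leaf call within the GH arrays (adjusted p = 0.0562).

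The scpl29 signal (AT4G30810, probe set 253600_at) was 132, 137, 205 and 106 in stem, 272, 218 and 217 in leaf and 451, 362, 523 and 299 in flower. The tissues again did not overlap, though the highest stem array, GH 1, came close to the lowest leaf array. Flower exceeded stem by 1.51 ± 0.22 (SE; adjusted p = 2.8e-04) on the log2 scale, a call kept in all 22 alternatives. The steps to leaf were less secure. Flower against leaf was at 0.77 ± 0.24 (SE; adjusted p = 0.0287), a call lost with centring on the 75th percentile (adjusted p = 0.0706), with RNA quality as a covariate (0.191), without leaf GH 1 (0.0857), without leaf GH 2 (0.0889), without flower GC 1 (0.0633), without flower GH 1 (0.0987), within the GC arrays (0.157) and within the GH arrays (0.138). Stem against leaf was at -0.74 ± 0.24 (SE; adjusted p = 0.0302), a call lost without leaf GC 1 (adjusted p = 0.143), without leaf GH 1 (0.0592), without leaf GH 2 (0.0570), without stem GC 1 (0.0616), without stem GC 2 (0.0585), without stem GH 2 (0.0941) and within the GH arrays (0.307).

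The scpl42 signal (AT5G42240, probe set 249216_at) was 78.4, 76.5, 85.9 and 85.7 in stem, 155, 128 and 133 in leaf and 169, 175, 198 and 263 in flower. Every stem array lay below every leaf array, and every flower array above. Flower exceeded stem by 1.28 ± 0.16 (SE; adjusted p = 7.4e-05) on the log2 scale, a call kept in all 22 alternatives. Stem fell below leaf at -0.74 ± 0.17 (SE; adjusted p = 0.00483), a call lost within the GH arrays (adjusted p = 0.0790). Flower against leaf was at 0.54 ± 0.17 (SE; adjusted p = 0.0273) and lost its call with centring on the 75th percentile (adjusted p = 0.0881), with RNA quality as a covariate (0.0775), without leaf GH 1 (0.108), without leaf GH 2 (0.0973), without flower GH 2 (0.0942) and within the GC arrays (0.724). This gene lies close to the flower-high scpl41 on chromosome 5, with 2 protein-coding genes between them in RefSeq. Both had their highest signal in flower, but scpl42 was above the dim limit on all 11 arrays and scpl41 on the 4 flower arrays.

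Anther and pollen markers moved with the flower-high genes. Of 20 such markers listed with earlier results of these data known, 10 had a probe set and 8 were tested. Of these 8, 7 rose in flower against leaf and none fell, and 5 rose and 1, the actin gene ACT11, fell in flower against stem. Over all probe sets tested, 21.3% were higher in flower than leaf, and 25.5% higher and 15.4% lower in flower than stem. ATA27, PLIM2a, AtVEX1 and AGL18 were dim on every leaf and stem array. They passed the filter through flower alone, so their rises are no support. The sum of the 10 was 1953 to 2113 on flower arrays, 250.0 to 337 on leaf arrays and 747 to 1076 on stem arrays. Its largest part was ATA27 in flower, at 1013 ± 77.5 (SD, n = 4), and ACT11 in stem, at 674 ± 143 (SD, n = 4). None of these markers was at 0, and 7 of the 10 were dim on every leaf array and 6 on every stem array, among them ATA27 of the tapetum and the pollen actin bundler PLIM2a. The ovule gene INO, the only measured marker of 9 for ovule and seed, rose in flower against leaf and stem, from 23.9 ± 8.01 (SD, n = 3) in leaf and 27.9 ± 7.41 (SD, n = 4) in stem to 61.3 ± 6.89 (SD, n = 4). RNA quality moved with flower too: the mean log2 ratio of 3' to 5' signal of the control genes was 0.53 to 0.90 on flower arrays, -0.24 to 0.09 on leaf arrays and 0.01 to 0.24 on stem arrays apart from stem GH 1 at 2.13. The part of these cell types in the flower-high genes was not tested. With the ratio as a covariate, 11 members were called higher and 2 lower in flower against leaf, in place of 14 and 2, and 5279 of 15718 probe sets were called, in place of 5617. The calls of scpl29, scpl42, SCPL45 and SCPL27 were lost there, that of scpl26 was gained, and the log2 change of scpl29 went from 0.77 to 0.39. Within tissues the ratio varied mostly through stem GH 1, so fits with this covariate lean on that single array. The highest stem signal of scpl29, 205, was also from there. This limit holds for every call lost or gained with RNA quality as a covariate. The part of flower RNA quality in these changes was not tested.

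**Figure D3:**
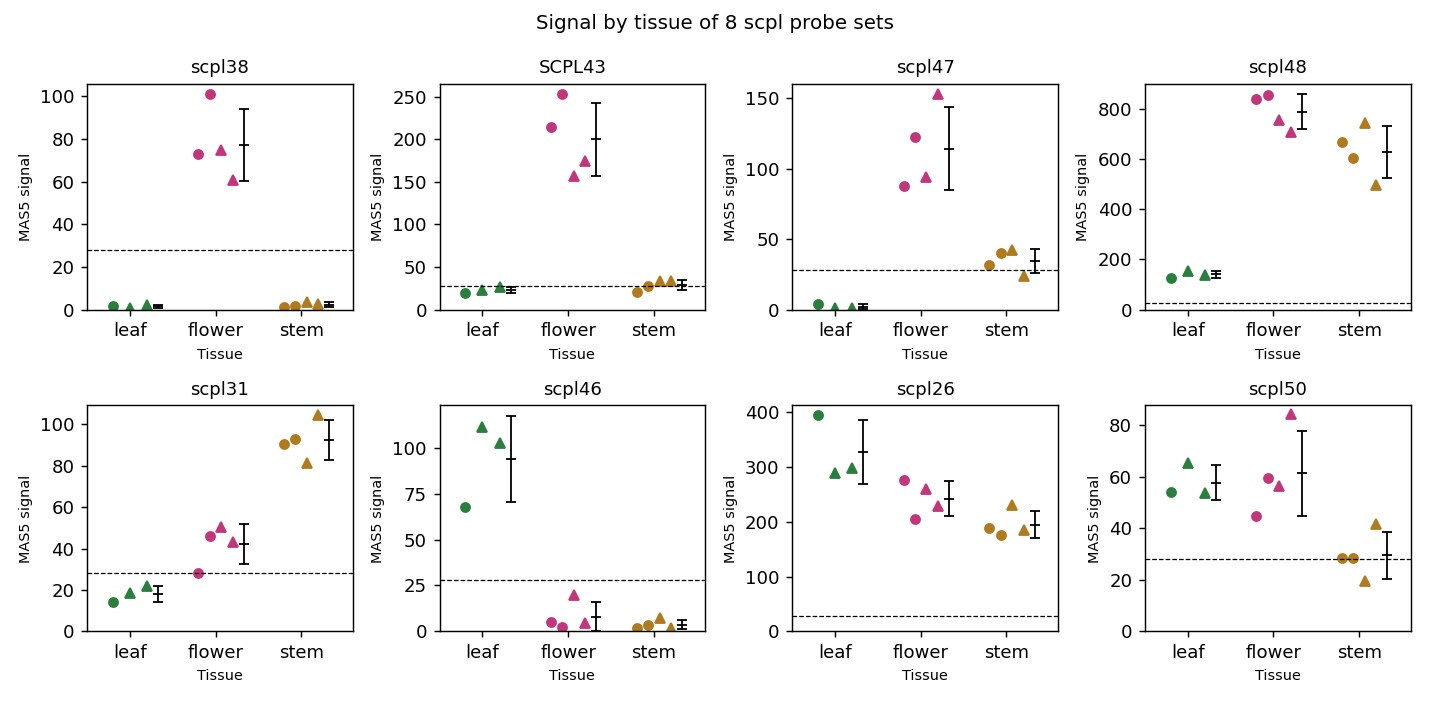
MAS5 signal (linear axis from 0) by tissue for 8 members that stand for the patterns described, with GC arrays as circles, GH arrays as triangles, and the mean with its SD beside each group. The dashed line is the dim limit. Flower stands highest for scpl38, SCPL43 and scpl47, stem for scpl31 and leaf for scpl46, while stem is lowest for scpl50.

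Stem was called above both other tissues for scpl31 and SCPL45. The scpl31 signal (AT1G11080, probe set 260475_at) was 90.6, 92.7, 81.4 and 105 in stem, 28.4, 46.0, 50.6 and 43.4 in flower and 14.0, 18.7 and 21.8 in leaf. The tissues did not overlap, leaf was dim on every array, and all 4 flower arrays lay above the limit, GC 1 by under 1 signal unit. Thus scpl31 passed the filter through flower and stem alone, and its calls against leaf are no support. Stem, at 92.3 ± 9.56 (SD, n = 4), was at least 3.27-fold higher (fitted change at adjusted p = 2.0e-05) than leaf, at 18.2 ± 3.91 (SD, n = 3). Flower, at 42.1 ± 9.63 (SD, n = 4), was at least 1.46-fold higher than leaf (fitted change at adjusted p = 0.00189). It was lower than stem by a log2 change of -1.16 ± 0.22 (SE; adjusted p = 0.00161). The flower against leaf call was lost within the GC arrays (adjusted p = 0.0736), and the flower against stem call within the GH arrays (adjusted p = 0.0691).

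The SCPL45 signal (AT1G28110, probe set 259599_at) was 253, 300.1, 262 and 271 in stem, 132, 163, 180.0 and 177 in flower and 131, 109.6 and 102 in leaf. Stem lay clear of both other tissues, and flower GC 1, at 132, was close to leaf GC 1, at 131. The log2 change of stem against leaf was 1.26 ± 0.16 (SE; adjusted p = 1.0e-04), kept in all 22 alternatives, and that of flower against stem was -0.74 ± 0.15 (SE; adjusted p = 0.00193), lost within the GH arrays (adjusted p = 0.0643). Flower against leaf was called at 0.51 ± 0.16 (SE; adjusted p = 0.0265) and lost its call with quantile normalization (adjusted p = 0.0509), with centring on the 75th percentile (0.0848), with RNA quality as a covariate (0.0635), without leaf GH 1 (0.0827), without leaf GH 2 (0.107), without flower GC 2 (0.0508), without flower GH 1 (0.0826), without flower GH 2 (0.0765) and within the GC arrays (0.720). The secondary wall markers given above also rose in stem, and their part in the scpl31 and SCPL45 signals was not tested.

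SCPL34 and scpl40 were higher in flower and stem than in leaf, with no call between flower and stem. The SCPL34 signal (AT5G23210, probe set 249847_at) was 102, 104 and 99.5 in leaf, 156, 172, 180.3 and 441 in flower and 208, 169, 210.2 and 222 in stem. The leaf arrays were the lowest, and flower GH 2 was far above all other arrays. The log2 change was 1.14 ± 0.27 (SE; adjusted p = 0.00669) for flower against leaf and 1.04 ± 0.27 (SE; adjusted p = 0.00980) for stem against leaf. The flower call was kept without flower GH 2, with a log2 change of 0.77 (adjusted p = 0.00387), and was lost within the GC arrays (adjusted p = 0.124). The stem call was lost within the GC arrays (adjusted p = 0.0574) and within the GH arrays (0.0780).

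The scpl40 signal (AT3G63470, probe set 251116_at) was 3.35, 16.9 and 7.77 in leaf, 47.9, 42.7, 28.5 and 61.3 in flower and 66.0, 37.5, 38.7 and 41.2 in stem. Leaf was dim throughout, and the flower and stem arrays were above the limit and overlapped. Against leaf, at 9.34 ± 6.92 (SD, n = 3), flower was at least 1.55-fold higher, at 45.1 ± 13.6 (SD, n = 4). Stem was at least 1.59-fold higher than leaf, at 45.8 ± 13.5 (SD, n = 4). The fitted changes had adjusted p = 0.00172 in flower and adjusted p = 0.00143 in stem. As scpl40 passed the filter through flower and stem alone, these calls are no support. The flower call was lost with values floored at the dim limit (adjusted p = 0.0779) and within the GH arrays (0.0516), and the stem call with values floored at the dim limit (adjusted p = 0.0622) and within the GH arrays (0.0533).

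Leaf was called above both other tissues for scpl46 alone among the members tested. The scpl46 signal (AT2G33530, probe set 255842_at) was 67.4, 111 and 103 in leaf, 5.23, 2.58, 19.9 and 4.69 in flower and 1.89, 3.76, 7.10 and 2.00 in stem. All leaf arrays were above the dim limit and all others below it. Leaf, at 93.9 ± 23.3 (SD, n = 3), was at least 3.26-fold above flower, whose measured mean was 8.09 ± 7.93 (SD, n = 4). The same bound held against stem, with a measured mean of 3.69 ± 2.43 (SD, n = 4). The fitted changes had adjusted p = 0.00192 against flower and adjusted p = 4.3e-04 against stem. As scpl46 passed the filter through leaf alone, these calls are no support. Within the GC arrays, with 1 leaf array, both calls were lost (adjusted p = 0.149 and 0.105). Markers of photosynthetic leaf tissue were highest in leaf: LHCB4.2, RCA and HPR, the 3 measured of 15, all fell in flower and in stem. Their sum was 13410.1 to 14422 on leaf arrays, 2542 to 4132 on flower arrays and 7053 to 10138 on stem arrays. None of them was dim or at 0 in any tissue, unlike scpl46, which was dim on every flower and stem array. Over all probe sets tested, 14.4% were lower in flower than leaf and 21.6% lower in stem than leaf. The part of these markers in the scpl46 signal was not tested.

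The gene scpl26 (AT2G35780, probe set 265795_at) was bright in all organs and highest in leaf. Its signal was 394, 289 and 298 in leaf, 276, 206, 259 and 228 in flower and 188, 175, 230.2 and 185 in stem. Leaf lay above flower and stem without overlap, and flower and stem overlapped. Stem fell below leaf at -0.75 ± 0.17 (SE; adjusted p = 0.00428) on the log2 scale, a call lost within the GH arrays (adjusted p = 0.0921). Flower against leaf was at -0.43 ± 0.17 (SE; adjusted p = 0.0667), not called, but called with centring on the 75th percentile (adjusted p = 0.0261), with RNA quality as a covariate (0.0156) and without stem GH 1 (0.0359). Flower against stem was at 0.32 ± 0.16 (SE; adjusted p = 0.128), not called, but called without stem GH 1 (adjusted p = 0.0459). Its neighbour on chromosome 2, scpl28 (AT2G35770, probe set 265846_at), was dim on 9 of 11 arrays and is described with the dim members.

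SCPL27 (AT3G07990, probe set 258633_at) was lower in flower than in both other tissues. The signal was 32.1, 41.5, 12.4 and 29.2 in flower, 52.8, 60.3 and 66.8 in leaf and 69.6, 72.7, 47.8 and 67.0 in stem. The flower arrays were all below the rest, with GH 1 under the dim limit. Flower fell against leaf at -1.25 ± 0.34 (SE; adjusted p = 0.0127) on the log2 scale, a call lost with RNA quality as a covariate (adjusted p = 0.0694), without leaf GH 2 (0.0561) and within the GC arrays (0.348). Against stem the change was -1.27 ± 0.31 (SE; adjusted p = 0.00646), with the call lost within the GH arrays (adjusted p = 0.0548). Stem against leaf was not called, at 0.02 ± 0.34 (SE; adjusted p = 0.969).

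The opposite case was scpl50 (AT1G15000, probe set 260739_at), with its lowest signal in stem. The signal was 28.4, 28.7, 19.4 and 41.7 in stem, 54.3, 65.5 and 53.6 in leaf and 44.9, 59.4, 56.5 and 84.5 in flower. Stem arrays lay below all others, GH 1 under the limit and both GC arrays just above it, and leaf and flower overlapped. Stem against leaf was at -0.98 ± 0.29 (SE; adjusted p = 0.0183), a call lost with RNA quality as a covariate (adjusted p = 0.0971), without leaf GC 1 (0.0666), without leaf GH 1 (0.0647), within the GC arrays (0.139) and within the GH arrays (0.115). Flower exceeded stem by 1.07 ± 0.27 (SE; adjusted p = 0.00751), a call lost within the GC arrays (adjusted p = 0.0862) and within the GH arrays (0.0819).

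No tissue difference was called for scpl20 and scpl44, beside 38.0% of all probe sets with no call. The scpl20 signal (AT4G12910, probe set 254791_at) was 114, 103 and 109 in leaf, 113, 113, 134 and 81.2 in flower and 185, 123, 124 and 132 in stem. The stem arrays lay above those of leaf, with stem GC 1 highest, but the log2 change of 0.33 ± 0.20 (SE; adjusted p = 0.215) did not pass. Flower against stem, at -0.35 ± 0.18 (SE; adjusted p = 0.146), was called with centring on the 75th percentile (adjusted p = 0.0437). The scpl44 signal (AT1G43780, probe set 260859_at) was 20.1, 24.3 and 28.1 in leaf, 16.7, 25.6, 47.0 and 31.4 in flower and 47.1, 35.2, 36.0 and 36.2 in stem. The arrays lay on both sides of the dim limit in leaf and flower and above it in stem, and its stem against leaf change of 0.74 ± 0.33 (SE; adjusted p = 0.0938) did not pass.

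The remaining 9 members were not tested. Of these, scpl16, scpl18, scpl21, scpl22, scpl23, scpl30 and SCPL32 were under the dim limit on all 11 arrays, a share of 24.1% of the members, against 22.7% of all probe sets and 27.2% of those naming 1 gene. Outside the acyltransferase relatives their highest array reached 13.6 for SCPL32 (AT1G61130, probe set 264937_at), 18.0 for scpl21 (AT3G25420, probe set 257934_at), 19.0 for scpl22 (AT2G24000, probe set 266564_at), 25.1 for scpl30 (AT4G15100, probe set 245531_at) and 25.8 for scpl23 (AT2G24010, probe set 266565_at). Both genes of the adjacent pair scpl22 and scpl23 on chromosome 2 were thus dim in all 3 tissues.

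Just outside the filter were scpl28 and scpl33, with 2 and 1 arrays above the limit. The scpl28 signal was 22.0, 15.7, 32.7 and 29.8 in stem, 4.34, 12.5, 18.5 and 16.8 in flower and 4.94, 5.96 and 2.62 in leaf. Every stem array lay above every leaf array, but only the GH arrays of stem exceeded the limit. With no filter, scpl28 was called higher in stem than in leaf (adjusted p = 0.00425), and scpl23, dim on every array, was called lower in flower than in leaf (adjusted p = 0.0232). The scpl33 signal (AT3G17180, probe set 257881_at) was 26.8, 25.5 and 28.2 on leaf arrays, 10.5 to 25.1 on flower arrays and 10.5 to 18.2 on stem arrays. Leaf GH 2 alone passed the limit, and just inside the filter were scpl46, with 3 arrays above it, and scpl38 and scpl41, with 4.

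No member passed the test of the code GH against GC. With tissue as a covariate, limma called 0 of the 20 tested members at an adjusted p of 0.05, against 0.00636% of all probe sets, and 1 member had an unadjusted p under 0.05. This was scpl35, named after its value was seen, with a log2 change of -0.32 ± 0.11 (SE; adjusted p = 0.376) for GH against GC. The largest fitted difference was that of scpl46, at 0.88 ± 0.59 (SE; adjusted p = 0.636), a gene above the dim limit in leaf alone. Fitted within a tissue, the code was called for 0 of 20 members in flower (0.0254% of all probe sets), 0 in stem (0.0827%) and 0 in leaf (0.235%), with 3, 0 and 3 members at an unadjusted p under 0.05. The 3 in flower were SCPL27, SCPL34 and scpl44, named after their values were seen. In leaf the GC side is 1 array, assumed to vary like the other groups, and of its 3 members scpl40 and scpl47 were dim on every leaf array, where differences carry no information, which leaves SCPL49. Whether the code acted differently in flower and in stem was tested as an interaction, which called 0 of 20 members and 0 of 15718 probe sets. At an unadjusted p under 0.05 it held 1 member, SCPL43 (log2 difference -0.96 ± 0.38, SE; adjusted p = 0.932). Among the 10 members above the limit on all 11 arrays, the coefficient of variation within a tissue was 2.32% to 57.4%, with a median of 13.3%. The highest value was that of SCPL34 in flower, where GH 2 stood apart.

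Few genes of the pathways in which characterised family members act had a probe set of their own. Of 29 genes listed for sinapate ester and phenylpropanoid synthesis, 7 had a probe set of their own and 5 were tested. In flower against leaf 2 of these fell and 0 rose, in stem against leaf 3 rose and 2 fell, and in flower against stem 4 fell and 0 rose. Over all probe sets tested, 14.4% were lower in flower than leaf and 15.4% lower in flower than stem. In stem against leaf, 17.9% were higher and 21.6% lower. HCT, a transferase of lignin precursor synthesis, was at 629.8 ± 43.7 (SD, n = 3) in leaf, 219.8 ± 46.6 (SD, n = 4) in flower and 928 ± 156 (SD, n = 4) in stem. ALDH2C4, also called REF1, which makes sinapate from its aldehyde, was at 541 ± 47.9 (SD, n = 3) in leaf, 117 ± 20.6 (SD, n = 4) in flower and 250.4 ± 31.2 (SD, n = 4) in stem. The flower changes against leaf were -1.58 ± 0.16 (SE; adjusted p = 1.9e-05) for HCT and -2.27 ± 0.13 (SE; adjusted p = 4.3e-07) for ALDH2C4. UGT84A3, which makes glucose esters of the kind that SNG1 and SNG2 use, fell in stem against leaf at -0.87 ± 0.30 (SE; adjusted p = 0.0361). BGLU45, a glucosidase of lignin precursors, rose in stem to 140.1 ± 70.3 (SD, n = 4), and the glucosidase BGLU46 rose there as well, both with leaf and flower means under the dim limit. Both passed the filter mainly through stem, so their calls of stem against leaf and flower are no support. Of 21 genes of brassinosteroid synthesis and reception, the receptor gene BRL1 alone had a probe set of its own, which reached 33.4 ± 7.07 (SD, n = 4) in stem but was under the dim limit on every leaf and flower array. It passed the filter through stem alone, so its calls against leaf, in stem (adjusted p = 0.00487) and in flower (adjusted p = 0.0370, both tissues dim), are no support. Of 8 names of characterised family members, the probe sets held CPY, which is SCPL49.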

How the data were processed

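Total RNA of 11 samples was measured on ATH1 arrays. The authors deposited intensity values on a linear scale, made with MAS5 per the submitters' processing notes. Version and scaling target were not given in the sources used here, and no detection calls were used. Without the lowest and highest 2% of values the mean was 100.01 on every array. Arrays have no read depth, so their number limits the precision.

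Of 22810 probe sets, 64 are controls, 13513 name 1 gene, 503 several and 8730 none in GEO's platform annotation. RefSeq (TAIR10.1) gave loci and gene order for the members. A probe set was tested where at least 3 of 11 arrays were above the 40th percentile of all values, which kept 15718. Log2 values of all 11 arrays were modelled by limma 3.58.1 under R 4.3.3, with tissue and title code as terms and a mean-variance trend. P-values were adjusted by Benjamini-Hochberg over every probe set kept, with calls at an adjusted p under 0.05. The effect of the code within a tissue came from a model with 1 mean per tissue and code. The scripts were tested on simulated data. Errors are SD over arrays for signals and SE of the model for log2 changes. Where a tissue was dim on every array, the fold is a lower bound, the other tissue's mean log2 signal against the dim limit. The adjusted p given with it is that of the fitted log2 change, which uses the dim values, and does not test the bound.

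The rule for values on every array took up to 6 called members per comparison and direction without overlap, and the 4 with the highest mean signal; the other tested members are given likewise, and up to 4 called genes of a list are named, with exceptions stated. The members, lists and rules were chosen with earlier results of these data known. Differences between replicates 1 and 2 correlated at -0.07 to 0.07 between groups, none over 0.1, so the numbers were not taken as pairs. Alternatives covered scaling (quantile, or centring), filtering (none, or the 60th percentile), a floor at the dim limit, a replicate block, RNA quality as a covariate, no term for the code, the arrays of the tissues compared, each code alone, and each array left out.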

Additional observations from a re-analysis of the deposited data

Results flagged for a closer look

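In flower and stem, the groups with 4 arrays, 40 sets of values were examined for an array far from the others, and 5 had a gap to the nearest array large for its whole range by Dixon's test. Chance gives about 1 in 20. In flower, SCPL34 had 441 on GH 2, the next array being 180.3 (gap 0.915 of the range), and scpl46, dim on all flower arrays, had 19.9 on GH 1 with the next at 5.23 (gap 0.847). In stem, the GC 1 array was the high array for scpl20 at 185 with the next at 132 (gap 0.848), for scpl40 at 66.0 with the next at 41.2 (gap 0.869) and for scpl44 at 47.1 with the next at 36.2 (gap 0.913).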

How the results depend on the processing

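Of 41 member calls in the 3 tissue comparisons, 15 were kept in every alternative that could be run and 26 were lost in at least 1, and none reversed. The 15 include both calls of scpl38 and the scpl41 call of flower against stem. They also include flower against leaf for SCPL43 and scpl47, and stem against leaf for scpl31. In these cases passing the filter rested on the higher tissues alone, so these calls are no support. For scpl40, scpl41 and scpl50 the filter at the 60th percentile gave no value. Within the GC arrays, which hold 1 leaf array, 6 members were called between flower and leaf (6 higher, 0 lower) in place of 16. Within the GH arrays, 6 were called between stem and leaf (1 lower) in place of 13, and 7 between flower and stem (0 lower) in place of 12. These fits rest on fewer arrays. Leaving out each array in turn gave 12 to 17 member calls for flower against leaf (11 to 14 higher, 1 to 3 lower), with 12 and 1 lower without leaf GH 2 and 17 and 3 lower without stem GH 1. It gave 11 to 13 for stem against leaf (7 to 8 higher, 4 to 6 lower) and 12 to 14 for flower against stem (9 to 11 higher, 3 lower each time). With centring on the 75th percentile 11 members were higher and 3 lower in flower against leaf. With a replicate block the counts were 16, 13 and 12, as without it, and no call was lost. For GH against GC 0 members were called in all 18 alternatives run, by limma throughout. Over all probe sets, 2612 were called between flower and leaf, 3027 between stem and leaf and 4257 between flower and stem within the GC arrays, and 2976 between flower and stem within the GH arrays, in place of 5617, 6222 and 6421. Probe sets called for GH against GC numbered 1, and 0 to 13 over the alternatives, the most without leaf GC 1. Differences in signals near or under 28.1 are not measured well here.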
